A study of Homo sapiens with 24 samples.

Results

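MHC class II molecules and the factors that switch them on were examined in the super-enhancer table of OCI-Ly7 lymphoma cells. The list held 10 of the 19970 protein-coding genes of chromosomes 1 to 22 and X, chosen by name: the transactivator CIITA and the DNA-binding factor RFX5, the invariant chain CD74, and the HLA genes HLA-DRA, HLA-DRB1, HLA-DQA1, HLA-DPA1, HLA-DMA, HLA-DMB and HLA-DOB. A super-enhancer was assigned to a gene where it overlapped the gene's body in GENCODE version 44 (hg38) or lay within 50 kb of either end. Of these genes, 8 had at least 1 super-enhancer under this rule, against 30.7% of all protein-coding genes, and HLA-DRA and HLA-DOB had none. The 8 genes rested on 7 regions, some of them shared.

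The study profiled histone marks by CUT&RUN, a method that cuts out and sequences the DNA bound by an antibody to a mark, in isogenic clones of OCI-Ly7, an established cell line from a human diffuse large B-cell lymphoma resembling germinal center B cells (GCB-DLBCL). The 24 samples formed 12 groups of 2, from 3 marks (H3K27ac, H3K4me1 and H3K4me3) and 4 genotypes: WT, the non-edited control; C, with the CREBBP R1446C mutation, which inactivates the acetyltransferase domain; K, with a KMT2D knockout; and CK, with both lesions. Each genotype stood on clones grown from single cells of 1 line. The values analysed here were for H3K27ac in WT alone, as 1 signal per region in which both libraries were pooled, which left no replicate error for any value and allowed no test between samples. The other 22 samples, in 11 groups, were not analysed here, and the effect of either lesion on these genes was not measured.

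MHC class II molecules present peptides taken up from outside the cell to CD4 T cells, and B cells use them to receive T-cell help in the germinal center. Each is a pair of an alpha and a beta chain that is assembled with the invariant chain CD74 and loaded with peptide by HLA-DM, which HLA-DO restrains. Their promoters share a module of the X, X2 and Y boxes, bound by the RFX complex, CREB1 and NF-Y, and CIITA, which does not bind DNA itself, is recruited to that assembly and sets whether the genes are transcribed. H3K27ac is deposited by CREBBP and EP300 at active promoters and enhancers.

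Promoter sequences are shown for 4 HLA genes that the results turn on: HLA-DQA1 and HLA-DMB, whose start sites lay inside a super-enhancer, and HLA-DRB1 and HLA-DMA, whose start sites lay outside but near one. Each is the RefSeq promoter (GRCh38.p14) from 250 bases before to 50 bases after the start site, written 5′ to 3′ on the strand of the gene. Capitals mark matches on either strand to the Y box core CCAAT, which reads as ATTGG from the other strand, to the end of the X box, ACNGATG, and to the core of the X2 box, CGTCA, which reads as TGACG from the other strand.
HLA-DRB1, minus strand, chr6:32589799-32590098: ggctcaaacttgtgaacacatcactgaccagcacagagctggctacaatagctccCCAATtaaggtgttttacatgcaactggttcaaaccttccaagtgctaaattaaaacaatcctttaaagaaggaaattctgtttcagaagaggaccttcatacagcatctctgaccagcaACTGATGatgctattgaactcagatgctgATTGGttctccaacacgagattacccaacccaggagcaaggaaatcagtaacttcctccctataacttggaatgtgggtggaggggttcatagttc
HLA-DQA1, plus strand, chr6:32637156-32637455: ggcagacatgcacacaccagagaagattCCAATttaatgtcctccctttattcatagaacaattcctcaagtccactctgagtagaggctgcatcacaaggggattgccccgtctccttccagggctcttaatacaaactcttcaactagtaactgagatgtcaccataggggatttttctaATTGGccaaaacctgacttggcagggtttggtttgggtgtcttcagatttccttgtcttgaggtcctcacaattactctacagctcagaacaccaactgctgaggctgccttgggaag
HLA-DMA, minus strand, chr6:32953048-32953347: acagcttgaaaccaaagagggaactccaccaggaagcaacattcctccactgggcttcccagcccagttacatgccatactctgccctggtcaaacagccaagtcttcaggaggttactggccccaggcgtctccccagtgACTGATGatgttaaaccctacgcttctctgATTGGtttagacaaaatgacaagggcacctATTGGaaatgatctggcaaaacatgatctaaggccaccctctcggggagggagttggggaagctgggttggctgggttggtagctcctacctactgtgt
HLA-DMB, minus strand, chr6:32940979-32941278: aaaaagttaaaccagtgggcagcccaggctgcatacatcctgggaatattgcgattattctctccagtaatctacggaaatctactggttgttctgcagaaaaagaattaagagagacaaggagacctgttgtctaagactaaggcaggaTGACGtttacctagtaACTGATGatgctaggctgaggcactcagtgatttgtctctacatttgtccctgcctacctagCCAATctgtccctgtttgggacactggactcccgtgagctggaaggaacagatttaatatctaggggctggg

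In the HLA-DRB1 promoter the X box end began 75 bases before the start site and was followed, after 22 bases, by ATTGG beginning 46 bases before it. The HLA-DMA promoter held the same arrangement, with the X box end 109 bases and ATTGG 79 bases before the start site and 23 bases between them. This order on the gene's strand, with 10 to 40 bases between, was present in 42 of 35116 RefSeq promoters (0.120%), a search whose spacing was chosen after the sequences were seen. Of the 8 listed genes with a promoter entry, only these 2 held it. HLA-DRB5 and HLA-DQB1, other beta chain genes of the cluster, also held it, each with 22 bases between the boxes, whereas HLA-DQA2, HLA-DQB2, HLA-DPB1 and HLA-DOA did not. HLA-DMB held an X box end 84 bases and an X2 core 100 bases before its start site, but its Y box core, 22 bases before it, was read as CCAAT on the gene's strand. HLA-DQA1 held 2 Y box cores, 222 and 68 bases before the start site, and no match to the other motifs in this window.

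Promoters were in the table for 8 of the genes, in 11 entries, and CIITA and HLA-DRA had no entry. The Y box core was in at least 1 promoter of 7 of the 8 genes and in 34.6% of all promoters. The X box end was in 4 of them and in 7.65% of all promoters, and the X2 core was in 4 of them and in 24.6% of all promoters. The counts of genes took a match in any entry of a gene, whereas the shares are over single promoters. All 3 motifs together were in the HLA-DMB promoter alone among the listed genes, and in 0.598% of all promoters. A match is a description of letters and not a measured binding site.

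The table held 2615 super-enhancers, built with ROSE by joining H3K27ac peaks no more than 12.5 kb apart and summing the signal over the joined region. Every region lay above the table's cutoff of 10617. Signals ran from 10621 to 170185 with a median of 19736, in the table's own units, which its header did not name. The signal divided by the region's length, the signal per bp, is given beside it, since a long region can reach a high sum at a low density. A short region passes the cutoff only at a higher density, so the standing of a region in signal per bp depends on its length. Rank 1 is the highest signal.

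Beside the 8 of 10 genes with a super-enhancer, 30.7% of all protein-coding genes had one under the same rule. The median distance from the gene body to the nearest super-enhancer was 8.74 kb for the 10 genes and 182 kb for all protein-coding genes. The assigned regions were 7 in number and made 10 pairs of gene and region, because the HLA genes shared theirs. Their median signal was 30404, against 19736 for all regions. Their median signal per bp was 0.468 against 0.343, and their median length was 44.5 kb against 60.7 kb. These medians are not independent, because shorter regions need a higher signal per bp to pass the cutoff. Of the 7 regions, 5 were above the median of the table in signal and 5 in signal per bp, but only 3 in length.

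**Figure D1:**
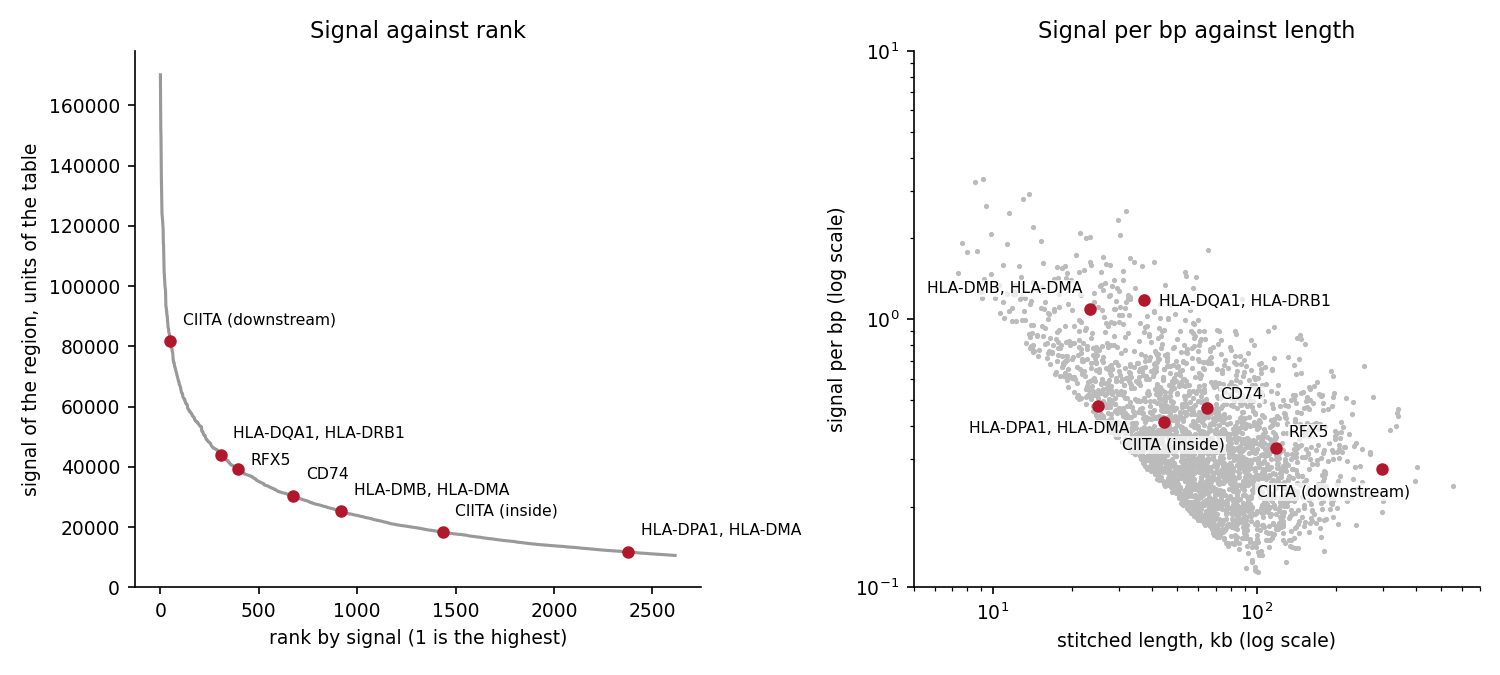
Left, the signal of each of the 2615 super-enhancers against its rank, with the 7 regions assigned to the MHC class II genes in red. Right, signal per bp against stitched length, both on log scales, with grey points for all regions except 3 that lie outside the axes; the HLA-DQA1 and HLA-DMB regions sit high for their length, and the region downstream of CIITA is long and of low density.

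The strongest of the assigned regions lay beside CIITA (ENSG00000179583.21, chromosome 16, 10866222 to 10943021, plus strand). It had rank 50, with a signal of 81691, or 7.69 times the cutoff, over 297 kb (chromosome 16, 10949443 to 11246394) and 97 constituent peaks. It was the 11th longest region in the table. Its signal per bp was 0.275, and 33.0% of all regions had a lower one, while 98.1% had a lower signal. The region began 6.42 kb past the end of CIITA and 72.2 kb from its canonical start site, and it covered 97.9% of the neighbouring gene CLEC16A, which made up 78.4% of the region. Of its length, 74.2% was intronic, 4.14% exonic and 21.6% outside protein-coding genes, and no canonical start site lay in it. Distance alone therefore assigned it to CIITA, and which gene it acts on is not measured by these values. The study also linked super-enhancers to genes of the same chromatin domain and examined contacts of some by H3K27ac HiChIP, which were not used here.

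A smaller super-enhancer, rank 1436, lay wholly within CIITA (chromosome 16, 10890404 to 10934902). Its signal was 18324, 1.73 times the cutoff, and 45.1% of all regions had a lower signal. It was 44.5 kb long and covered 57.9% of the gene, and also held part of DEXI. The signal of the CLEC16A region was 4.46 times that of the region inside CIITA over 6.67 times the length, and its signal per bp, 0.275 against 0.412, was 0.668 times as high. The region inside CIITA was densely built, with 20 constituents, or 0.449 per kb, which placed it 27th of 2615 in constituents per kb. The 2 regions were 14.5 kb apart, a little more than the 12.5 kb within which peaks were joined. The summed signal of both was 100015. By its strongest region within 50 kb, the CLEC16A region, CIITA stood behind 142 of the 6140 genes that had one (2.31%). That standing rested on the region assigned by distance alone, and not on the rank 1436 region inside the gene.

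CIITA is transcribed from alternative promoters that are used by different cell types. The annotation gave 7 start sites of its protein-coding transcripts, and 1 of them, at 10922167, was inside the rank 1436 region. The canonical start site at 10877202 was 13.2 kb outside it. The other start sites, which lie between 10866222 and 10878969, were 11.4 to 24.2 kb away. ROSE as described in the study's methods left out peaks close to a start site, so acetylation at the canonical CIITA promoter, outside both regions, was not measured by this table. A joined region can still span a start site, whose signal then counts in the sum, as at 10922167 in CIITA and at HLA-DQA1, HLA-DMB and HLA-DOA.

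RFX5 (ENSG00000143390.18, chromosome 1, 151340640 to 151347326, minus strand) encodes a subunit of the RFX complex that binds the X box. Its assigned region, rank 396, had a signal of 39287, 3.70 times the cutoff, over 119 kb (chromosome 1, 151201994 to 151320579) and 38 constituents. It was 20.1 kb downstream of RFX5 and overlapped PIP5K1A, PSMD4, ZNF687 and PI4KB. Its signal per bp of 0.331 exceeded that of 47.3% of regions, so its rank rested more on length than on density. RFX5 lost this region where at least 50% of the region had to lie in the gene's window.

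CD74 (ENSG00000019582.17, chromosome 5, 150401637 to 150412969, minus strand) encodes the invariant chain that escorts class II molecules to the endosome. A region of rank 676 lay 4.40 kb upstream of it (chromosome 5, 150417372 to 150482297), with a signal of 30404, 2.86 times the cutoff. Over its 64.9 kb and 18 constituents, the signal per bp was 0.468, above that of 70.4% of regions. It held all of RPS14, a ribosomal protein gene, and 89.1% of it was outside protein-coding genes. Its near edge was 4.46 kb from the canonical CD74 start site.

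**Figure D2:**
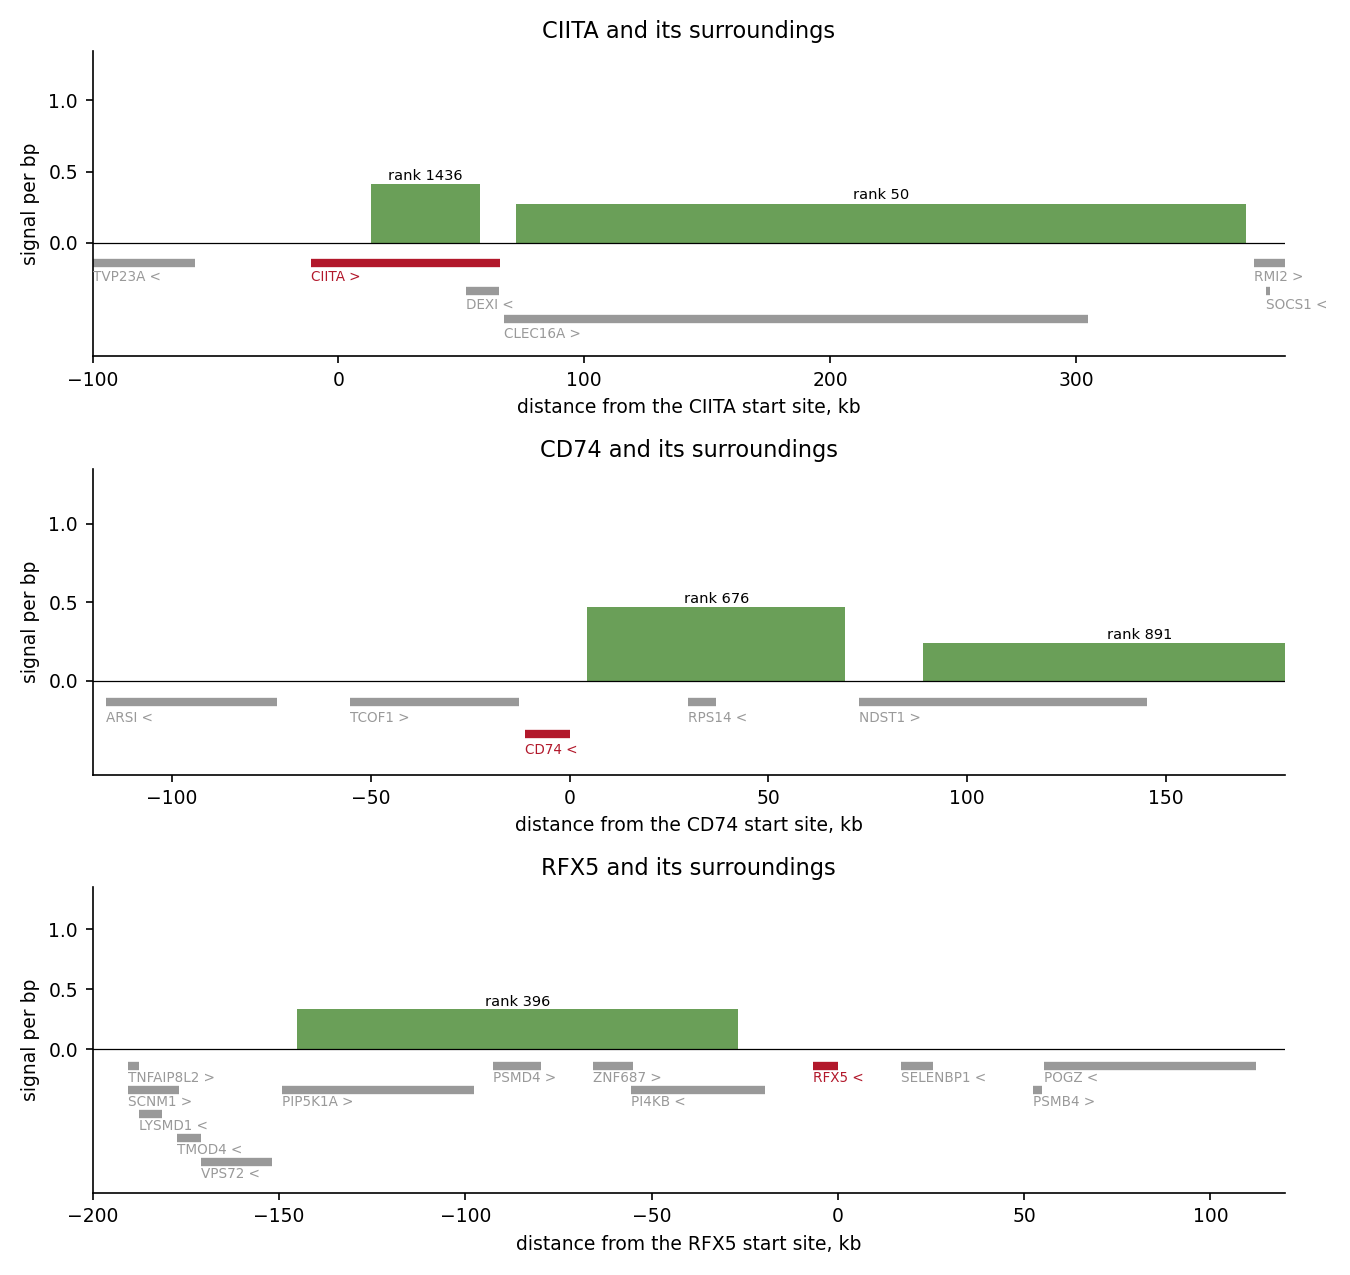
Super-enhancers (green bars, height in signal per bp) and protein-coding genes (lines below, the named gene in red, > and < for plus and minus strand) against distance in kb from the start site of CIITA, CD74 and RFX5. For CIITA a region of 44.5 kb lies within the gene and one of 297 kb lies beyond its end, while the regions of CD74 and RFX5 lie outside the gene bodies.

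From HLA-DRA to HLA-DPB1 (chromosome 6, 32439878 to 33089696, 650 kb) there were 3 super-enhancers, covering 13.2% of the segment. That is 4.62 regions per Mb, against 0.863 per Mb over chromosomes 1 to 22 and X, where regions covered 6.17% of the sequence. The summed signal was 125 per kb of the segment, against 22.3 per kb over all these chromosomes. In the class I segment from HLA-F to HLA-B, 1644 kb long, 4 regions gave 2.43 per Mb, 10.1% covered and a summed signal of 47.8 per kb. Within the class II segment, 10 of 20 protein-coding genes lay within 50 kb of a super-enhancer, against 20 of 46 in the class I segment and 30.7% of all protein-coding genes.

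HLA-DQA1 and HLA-DRB1 shared 1 region, rank 307 (chromosome 6, 32602934 to 32640422). Its signal of 44108 was 4.15 times the cutoff and above that of 88.3% of regions, over only 37.5 kb. Its signal per bp of 1.18 was the 98th highest of 2615, and its 17 constituents, or 0.453 per kb, placed it 25th in constituents per kb. HLA-DQA1 (ENSG00000196735.13, 32628179 to 32647062, plus strand), the alpha chain of HLA-DQ, had 64.8% of its body and its canonical start site in this region. HLA-DRB1 (ENSG00000196126.12, 32577902 to 32589848, minus strand), a beta chain of HLA-DR, started 13.1 kb from it. HLA-DQB1, the beta chain that pairs with HLA-DQA1, lay 19.0 kb from it. The region was 67.3% outside protein-coding genes, 28.5% intronic and 4.12% exonic.

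HLA-DMB and HLA-DMA, which encode the beta and alpha chains of the peptide exchanger HLA-DM, shared the region of rank 920 (chromosome 6, 32921474 to 32944728). Its signal was 25282, 2.38 times the cutoff, over 23.3 kb and 6 constituents. The signal per bp was 1.09, the 118th highest, so the HLA-DQA1 region exceeded it 1.74 times in signal but 1.08 times in signal per bp. The whole of HLA-DMB (ENSG00000242574.9, 32934629 to 32941028, minus strand) lay in it and made up 27.5% of it. HLA-DMA (ENSG00000204257.15, 32948613 to 32969094, minus strand) ended 3.88 kb from it, and its canonical start site was 8.37 kb away.

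HLA-DPA1 (ENSG00000231389.8, 33064569 to 33080775, minus strand), the alpha chain of HLA-DP, was assigned the weakest of the 7 regions, rank 2377 (chromosome 6, 33004570 to 33029496). Its signal of 11797 was 1.11 times the cutoff, and 9.10% of all regions were lower. The region had 4 constituents over 24.9 kb, and its signal per bp of 0.473 was above that of 71.0% of regions. With a signal so near the cutoff, this was close to the lowest signal per bp that a region of its length could have in the table. It held 92.8% of HLA-DOA, including its start site. HLA-DOA encodes the alpha chain of HLA-DO. The region lay 35.1 kb from the body of HLA-DPA1 and 35.5 kb from that of HLA-DMA, but 51.2 kb and 51.5 kb from their canonical start sites. The rank 920 region exceeded it 2.14 times in signal and 2.30 times in signal per bp, and the rank 307 region exceeded it 3.74 and 2.49 times.

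HLA-DRA and HLA-DOB had no super-enhancer under the rule. HLA-DRA (ENSG00000204287.14, 32439878 to 32445046, plus strand), the alpha chain shared by HLA-DR molecules, was 158 kb from the nearest one, rank 307, and 52.6% of all protein-coding genes were as far from a region or farther. HLA-DOB (ENSG00000241106.8, 32812763 to 32820466, minus strand), the beta chain of HLA-DO, was 101 kb from the rank 920 region, and 60.1% of genes were as far or farther. The 2 genes lay in gaps of the table, HLA-DRA in one of 1039 kb before the rank 307 region and HLA-DOB in one of 281 kb between ranks 307 and 920. The farthest gene within the rule was HLA-DPA1 at 35.1 kb and the nearest gene outside it HLA-DOB at 101 kb. A gene without a region may still carry acetylated enhancers or promoters, because peaks below the cutoff and peaks near start sites were not in the table.

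**Figure D3:**
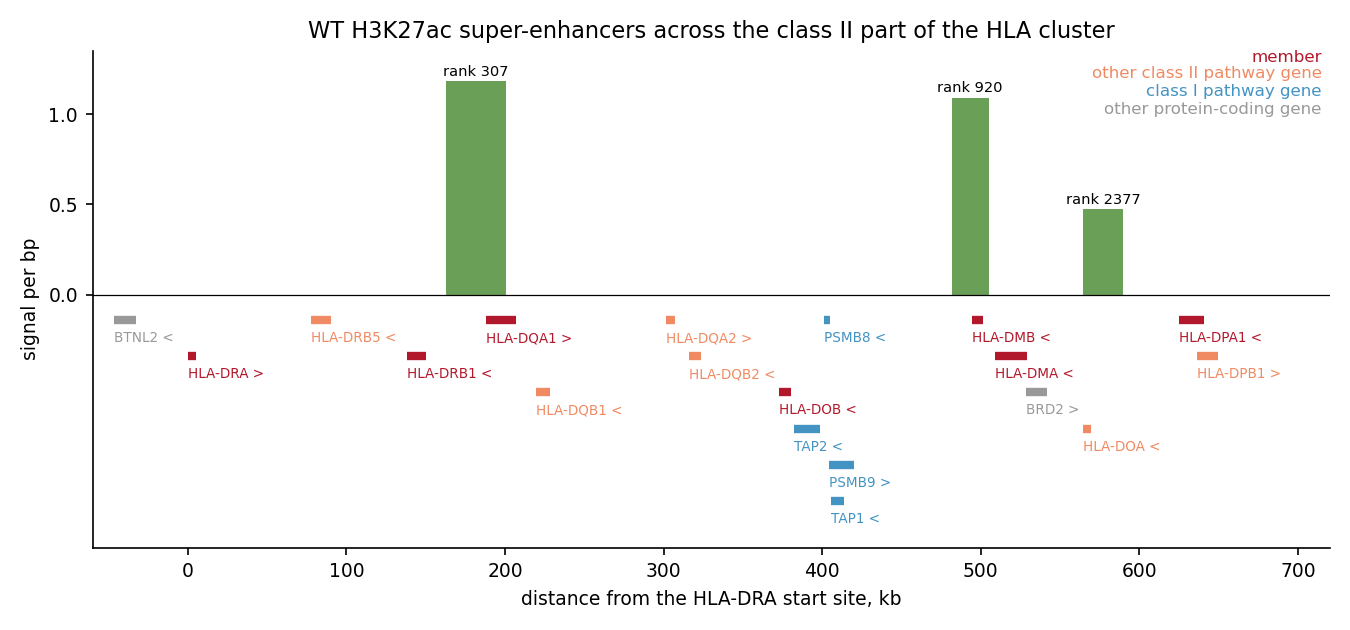
Super-enhancers (green bars, height in signal per bp) across the class II part of the HLA cluster, against distance in kb from the HLA-DRA start site, with protein-coding genes below (> and < for plus and minus strand). The regions of rank 307 and 920 reach 1.18 and 1.09 signal per bp and that of rank 2377 reaches 0.473, with HLA-DRA and HLA-DOB away from all 3.

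The count of genes with a region depended on how closely the region had to lie. At 25 kb it was 7 of the 10 genes, HLA-DPA1 being lost, against 25% of all genes, and with direct overlap it was 3, CIITA, HLA-DQA1 and HLA-DMB, against 17.3%. At 100 kb it stayed at 8, against 39.7%. Measured as 50 kb around the start site, it was 7 against 25.9%. Where at least 50% of the region had to lie in the window, it was 7 against 23.1%. With regions at 2 times the cutoff or more it was 7 against 15.2%, and with the 1307 regions of highest signal it was 7 against 16.8%, with HLA-DPA1 lost both times. CIITA was kept both times only through the rank 50 region, assigned by distance alone, because the rank 1436 region inside the gene dropped out. With gene spans from RefSeq in place of GENCODE, an alternative added after the data were seen, the count was 8 against 30.4%.

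Of 20 other genes of the class II pathway, 9 (45.0%) had a super-enhancer within 50 kb, against 30.7% of all protein-coding genes. The median distance over the list was 74.1 kb, against 182 kb over all protein-coding genes. Without the HLA genes of the list, 6 of 14 (42.9%) had a region. Among its HLA genes, those with a region were HLA-DQB1, HLA-DPB1 and HLA-DOA, through the regions described above, with HLA-DPB1 46.5 kb from rank 2377. HLA-DRB5, HLA-DQA2 and HLA-DQB2 were 72.6, 101 and 116 kb from the nearest region. Both lists together held 13 class II HLA genes, and 8 of them (61.5%) had a region, all through the same 3 regions. Genes of 1 cluster that share a region are not independent observations.

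Among the factors that bind beside CIITA, RFXANK, a subunit of the RFX complex, had a region over its start site (rank 2346) and another at 45.0 kb (rank 1255). NFYC, a subunit of NF-Y, had 3 regions (ranks 1193, 1710 and 1853), and CREB1, which binds the X2 box, had one at 1.30 kb (rank 1294). The remaining subunits RFXAP, NFYA and NFYB were 75.6, 800 and 137 kb from a region. Of the genes that process antigen or control surface class II, IFI30, a thiol reductase of the lysosome, had a region at 1.24 kb (rank 2344), LGMN, an endosomal protease, had one (rank 1810), and MARCHF8, a ubiquitin ligase that removes class II molecules from the surface, had 3 (ranks 470, 553 and 1541). The proteases CTSS, CTSL, CTSB and SPPL2A and the ligase MARCHF1 had none, at 94.6 to 1590 kb. At 2 times the cutoff or more, 2 of the 20 genes, HLA-DQB1 and MARCHF8, had a region (10%), against 7 of the 10 genes above and 15.2% of all genes.

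Of 17 genes of the class I pathway, which presents peptides made inside the cell, 3 had a super-enhancer within 50 kb: HLA-C, ERAP1 and ERAP2. That was 17.6%, against 30.7% of all protein-coding genes. At 100 kb this count became 10 of 17 (58.8%), against 39.7% of all protein-coding genes. TAP1, TAP2, PSMB8 and PSMB9, which make and transport class I peptides, lie in the class II segment in the gap that holds HLA-DOB. All of them entered the count at 100 kb through the rank 920 region shared by HLA-DMB and HLA-DMA, at 61.6 to 82.7 kb from it.

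**Figure D4:**
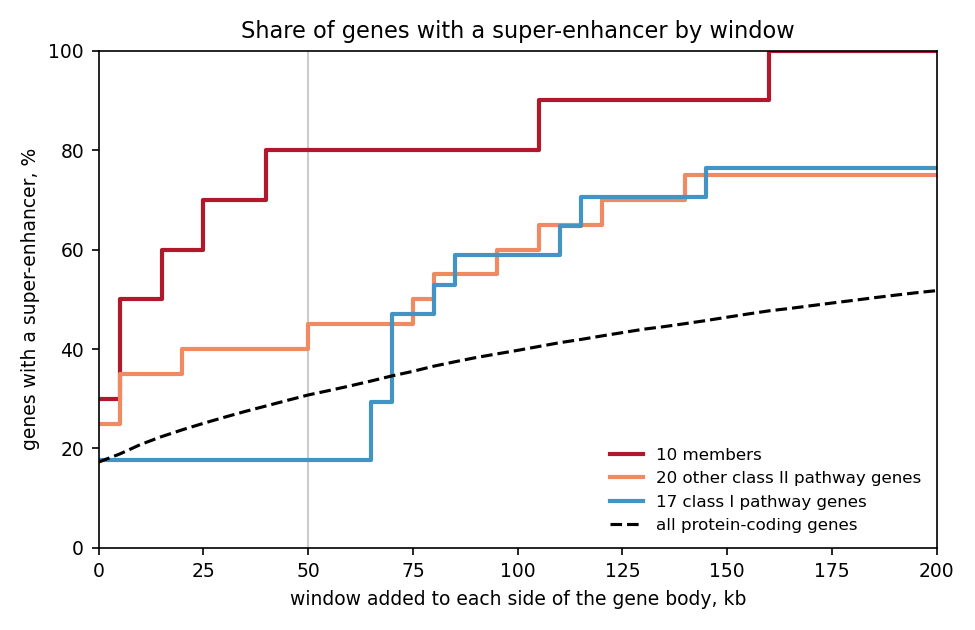
Share of genes (%) with a super-enhancer against the window added to each side of the gene body (kb, in steps of 5 kb), for the 10 MHC class II genes, 20 other class II pathway genes, 17 class I pathway genes and all 19970 protein-coding genes (dashed). At 50 kb (vertical line) the shares are 80.0%, 45.0%, 17.6% and 30.7%.

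The cell type was checked in the same way. Of 8 B-cell marker genes, 5 had a region, namely MS4A1, CD79A, CD79B, PAX5 and BCL6. Of 8 markers of other cell types, 1 had a region, CSF1R (rank 2511). The shares were 62.5% and 12.5%, against 30.7% of all protein-coding genes. A region near a gene is not a measure of its RNA.

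HLA sequences are highly variable between people and are held several times in hg38, which carries 7 alternate MHC contigs among 261 alternate contigs. Copies of each gene's 31-base words were therefore counted, since a read with an exact copy elsewhere cannot be placed uniquely. On the other chromosomal places, copies covered 0.785% of HLA-DMB and 15.3% of HLA-DRB1, the lowest and highest of the HLA genes on the list, against a median of 11.0% over all genes. On alternate contigs, copies covered 100% of HLA-DRA, 100% of HLA-DPA1, 99.6% of HLA-DOB, 99.5% of HLA-DMB and 98.9% of HLA-DMA, against a median of 6% over all genes. The shares were lower in HLA-DQA1, at 53.4%, and HLA-DRB1, at 34.1%. In CIITA, CD74 and RFX5 the shares of 31-base words were between 3.26% and 9.65%. Windows of 150 bases in which every word had a copy on alternate contigs made up 23.8% of HLA-DQA1 and 1.78% of HLA-DRB1, but 100% of HLA-DRA. The copies of a window's words need not lie together, so such a window need not be copied as a whole.

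For the regions, alternate copies covered 59.6% of rank 307, 99.9% of rank 920 and 100% of rank 2377, against a median of 7% over all regions. Among these 3 regions, the least covered, rank 307, had the highest signal and rank 2377 the lowest, but ranks 920 and 2377 were covered almost alike. Signal per bp was 1.18 in rank 307, 1.09 in rank 920 and 0.473 in rank 2377. Among the genes, the share was 99.5% in HLA-DMB, which had a region. It was 100% in HLA-DRA and 99.6% in HLA-DOB, which had none. Whether the authors' alignment reference held the alternate contigs is not given in the sources used here, and the part that mapping had in these signals was not tested.

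**Figure D5:**
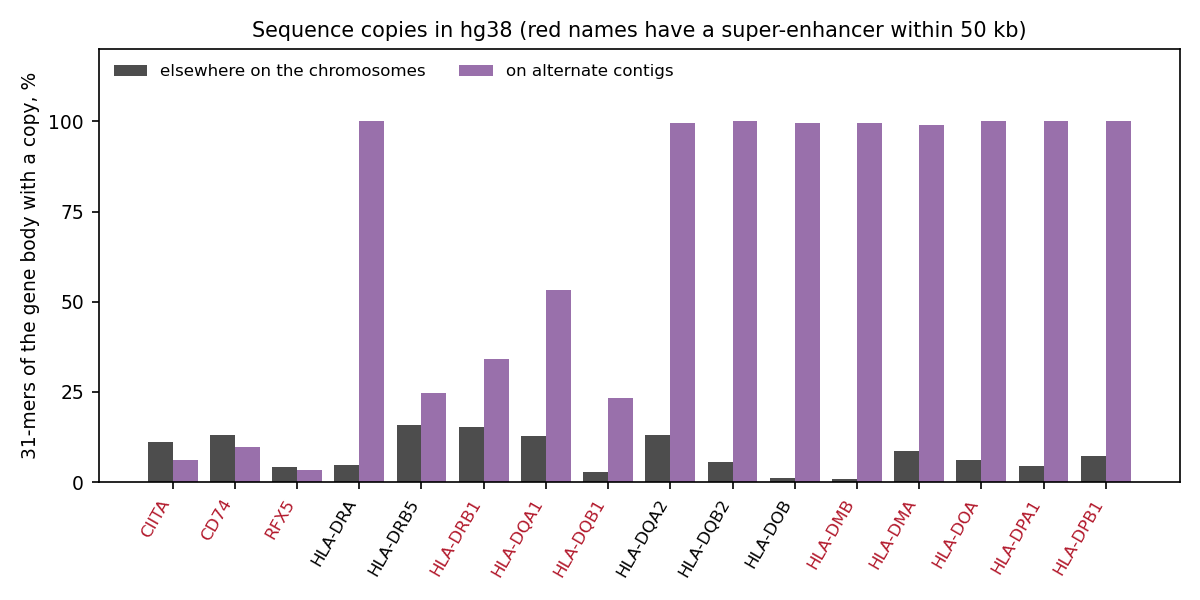
Share (%) of the 31-base words of each gene body that have an exact copy elsewhere on the chromosomes (dark bars) or on alternate contigs of hg38 (purple bars), for the listed genes and the other class II HLA genes, with red names for genes that have a super-enhancer within 50 kb. On alternate contigs HLA-DRA, without a region, and HLA-DMB, with one, both exceed 99%. HLA-DQA1 and HLA-DRB1, each with a region, reach 53.4% and 34.1%.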

How the data were processed

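H3K27ac, H3K4me1 and H3K4me3 were profiled by CUT&RUN in 24 samples. Per the study's methods, the authors aligned reads to hg38 in the nf-core cutandrun pipeline against IgG controls, called peaks with SEACR and their summits with MACS2, removed start sites of non-coding RNA, and built super-enhancers from WT H3K27ac with ROSE. The deposited signal is the ROSE signal per super-enhancer, pooled over both WT libraries. The table holds no read counts, so the depth behind each signal is unknown, although the study's methods state an approximate number of reads for a sample and a scaling to reads at promoters. With no value per library there are no replicates, errors or p-values.

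Distances were measured between regions and GENCODE version 44 gene bodies, or canonical transcript starts, in 1-based hg38 coordinates. Genes named were the 10 listed, genes of the other lists that had a region or lay between HLA-DRA and HLA-DPB1, and genes overlapping an assigned region. The class II pathway genes without a region outside that segment were named after their values were seen, to account for all 20. Members and lists were chosen with earlier results of these data known. Promoters came from RefSeq (GRCh38.p14). 31-base words were matched on both strands of hg38, at every position for named items and at up to 100 positions for the medians over all genes and regions. Alternatives changed the window, the anchor, the overlap, the regions kept and the annotation. Procedures were tested on simulated data. Python 3.11.15, numpy 2.4.6, pandas 2.3.3, numba 0.67.0 and matplotlib 3.10.9 were used.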

Additional observations from a re-analysis of the deposited data

How the results depend on the processing

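No paired analysis was possible because the table gave 1 pooled WT column. For the same reason the planned limma comparisons of C, K and CK with WT, the other pseudocount and the fits without 1 replicate were not run, and no result has a replicate error.

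With direct overlap of the gene body in place of 50 kb, 3 of the 10 genes, 5 of the 20 other class II pathway genes and 2 of the 8 B-cell markers had a region. The share of all genes was 17.3%. With regions at 2 times the cutoff or more, 2 of the 20 and 2 of the 8 did, against 15.2% of all genes. With the regions of highest signal, 5 of the 20 and 3 of the 8 did, against 16.8%. At 100 kb, 10 of the 17 class I genes had one, against 39.7%. The other 24 of 32 alternative counts stayed within 1.5 times the reported count; the alternatives for the B-cell markers and the RefSeq spans were added after the data were seen. The median signal of the assigned regions was 34846 at 25 kb, 25800 at 100 kb and 25282 over the 3 overlapping regions.

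The share of regions below each assigned region depended on the measure. By signal per bp in place of signal, it was 33.0% for rank 50, 96.3% for rank 307, 47.3% for rank 396, 70.4% for rank 676, 95.5% for rank 920, 63.3% for rank 1436 and 71.0% for rank 2377. By constituents per kb it was 82.6%, 99.0%, 80.0%, 57.5%, 45.1%, 99.0% and 1.76% in the same order. The table holds no region under the cutoff, so short regions appear in it only at a high signal per bp. Within 5% above the cutoff lay 119 regions.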
